A study of Mus musculus with 12 samples.

Results

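The genes described here encode the proteins of the cytosolic ribosome. They were chosen by name: protein-coding genes whose symbol starts with Rpl or Rps and a digit, the Rplp genes of the ribosomal stalk, and Rpsa, leaving out the Rps6k kinases. The rule found 97 of the 52636 genes in the deposited tables. Of these, 43 encode large-subunit proteins, 31 small-subunit proteins and 3 the stalk (Rplp0, Rplp1, Rplp2), 77 canonical genes in all. A further 8 are paralogs (Rpl3l, Rpl7l1, Rpl10l, Rpl22l1, Rpl39l, Rpl36al, Rps27l, Rps27rt), 11 carry a pseudogene name (-ps) although annotated as protein coding, and Rps19bp1 encodes a protein that binds the small-subunit protein Rps19 and is not itself a ribosomal protein by name. Rps4l is annotated as a transcribed processed pseudogene and did not meet the rule.

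RNA was sequenced from colon of C57BL/6 mice, and all 12 libraries carried the ApcMin/+ allele, which causes intestinal adenomas. The control genotype was ApcMin/+; Cul4bWT (WT here), and the other was ApcMin/+; Cul4bΔIEC (KO here), in which the ubiquitin ligase scaffold gene Cul4b is deleted in the epithelium; the Cre driver is not given in the sources used here. Each genotype was sampled at 3, 4 and 5 months of age, in colon adenoma (T) and adjacent normal colon (N), with T and N read from the sample titles. Each of the 4 groups thus held 3 libraries, 1 per age. The labels do not name the animals, nor say whether T and N of 1 genotype and age came from the same mouse. The model held no such pairing. The p-values rest on the spread among the libraries at hand, which differ in age within each group.

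Each ribosome holds a single copy of nearly every canonical protein, so their genes are expressed in a balanced way, and unassembled proteins are degraded. Their mRNAs belong to the TOP class, which starts with a C followed by a run of pyrimidines and whose translation is controlled by mTORC1 through Larp1. Ribosome production is driven by Myc, an effector of the Wnt pathway that Apc restrains, and is high in the proliferating cells of the colon crypt.

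The start of these transcripts is the feature that defines the TOP class, so 6 start regions are shown, picked from the 12 that begin with a C and 4 pyrimidines among 57 canonical genes that matched a RefSeq promoter by symbol (build GRCm38.p6). The other 45 lack that start. Each line is 30 bases, 5′ to 3′ on the gene's strand, with the annotated start as the 16th base. Capitals mark the run of pyrimidines at or next to the start.
Rps27 (chr3:90213634-90213663, minus strand): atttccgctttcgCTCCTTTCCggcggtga
Rpl38 (chr11:114668565-114668594, plus strand): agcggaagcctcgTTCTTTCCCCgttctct
Rps6 (chr4:86857353-86857382, minus strand): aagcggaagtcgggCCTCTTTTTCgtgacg
Rpl14 (chr9:120571502-120571531, plus strand): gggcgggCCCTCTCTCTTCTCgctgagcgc
Rpl28 (chr7:4792950-4792979, plus strand): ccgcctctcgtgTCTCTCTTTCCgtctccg
Rplp2 (chr7:141447636-141447665, plus strand): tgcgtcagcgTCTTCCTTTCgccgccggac

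A C at the annotated start followed by 4 pyrimidines was found in 12 of the 57 canonical genes (21.1%) and in 2.15% of 16292 protein-coding promoters. None of 68 mitochondrial ribosomal protein genes had it. The letters CTTCCG, searched on both strands from 250 bases before to 50 after the start, were present in 68.4% of the canonical promoters, 55.9% of the mitochondrial ribosomal protein promoters and 22.4% of all. The E-box letters CACGTG, the core that Myc binds, occurred in 8.77% of canonical promoters and 8.11% of all. The letters TATAA occurred in 26.3% and 21.9%. These are matches of letters around annotated starts, and the annotated start may lie some bases away from the one used in colon. The 12 genes with the C and pyrimidine start and the 45 without had T minus N medians of -0.27 and -0.20 on the log2 scale in WT and of -0.15 and -0.12 in KO.

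Levels are given as deposited, in FPKM (fragments per kilobase of gene length, divided by a library factor), so genes can be compared with each other within a library, as far as the deposited length fits the mRNA. That length was 0.584 (Rpl17) to 6.79 times (Rpl35a) the mRNA length in the annotation, with a median of 2.01, so the order of levels and the size of ratios between genes depend on it. Over the 12 libraries, 75 of the 77 canonical genes averaged 100 FPKM or more and 15 reached 1000, with a median of 593. Rplp1, a stalk protein that recruits elongation factors, was the most abundant. It measured 6141, 4674 and 7345 FPKM in WT N at 3, 4 and 5 months, and 4573, 2799 and 3532 in WT T. In KO it measured 5505, 6664 and 4953 in N and 5075, 3452 and 3644 in T. Each T library was below the N library of its own genotype and age, while the groups overlapped across ages in KO. Rps3a1, Rpl41, Rps14 and Rps29 followed, at means of 1790 to 2486 FPKM.

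The canonical genes listed far below the others were Rpl24 and Rpl13a. Rpl24, a large-subunit protein whose loss gives the Belly spot and tail mouse, was listed at 2.51 to 5.90 FPKM, with 46 to 169 reads per library. Rpl13a was listed at 12.2 to 43.1 FPKM. The next lowest canonical mean was that of Rpl21, at 125 FPKM. Each of the former lies almost wholly within another gene on the same strand (Gm28037 over 5093 of the 5161 bases of Rpl24, Gm45713 over 2840 of the 3204 bases of Rpl13a), and both of these covering genes were listed at 0 reads in every library. The paralog Rpl36al, at 27 to 101 reads, lies in the same way under AC099934.3, also at 0. How the authors' counting treated reads in such overlaps is not stated, so the levels of these genes are uncertain.

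Of the 97 genes, 4 had no read in any library (Rpl10l, Rpl13a-ps1, Rpl36-ps4, Rpl9-ps1). Rpl3l, the muscle form of Rpl3, and Rpl39l, the testis form of Rpl39, stayed below the mean of 0.5 FPKM needed for testing, at means of 0.0801 and 0.0753 FPKM. The other 91 were tested. Reads shared with pseudogenes are a second source of uncertainty: 59 of the 97 have at least 1 pseudogene row of their own name. The 263 such rows that are not protein coding and the 11 protein-coding -ps members together took 2.55 to 3.55% of the reads of members and pseudogenes. Among the 97, 50 overlap some other annotated gene, 20 of them a protein-coding one, and 34 have both an overlap and such a pseudogene row. The strandedness of the counting is not given in the sources used here.

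Each library held between 18263611 and 25321931 reads in genes. The deleted gene Cul4b was listed at 7.88 to 14.96 FPKM in WT and 0.920 to 2.98 in KO, without overlap. Summed FPKM of 5 colonocyte markers was 6603 to 14460 in WT N, 1214 to 20970 in KO N and 40.1 to 196 in T. The 4 goblet cell markers summed to 1520 to 4751 in N and 62.8 to 214 in T, and 4 neutrophil markers to 17.3 to 161 in N and 332 to 1053 in T. No marker of these 3 lists was at 0 in any library. The 5 smooth muscle markers summed to 24.96 to 95.2 in WT N, 30.99 to 507 in KO N, 43.41 to 271.2 in WT T and 21.75 to 214 in KO T. The N libraries thus also differed among themselves, most widely in KO for the colonocyte and smooth muscle lists. The part of cell composition in the results was not tested, and in bulk tissue fewer cells of a type and less RNA per cell cannot be told apart.

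Whether the ribosomal protein mRNAs were higher or lower in adenoma depended on the scale. As deposited, the 97 genes summed to 71538, 58762 and 74441 FPKM in WT N at 3, 4 and 5 months and to 56002, 45920 and 47355 in WT T. In KO the sums were 66570, 71860 and 56892 in N and 67073, 54234 and 44226 in T. The sum was lower in T in 5 of 6 pairs matched on genotype and age. The exception was KO at 3 months. As a share of all FPKM in the same library, the order turned: the genes took 10.4 to 12.2% in the 6 N libraries and 13.2 to 17.98% in the 6 T libraries, without overlap. As a share of recovered reads they took 7.03 to 9.28% in N and 8.21 to 12.5% in T, which overlap.

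**Figure D1:**
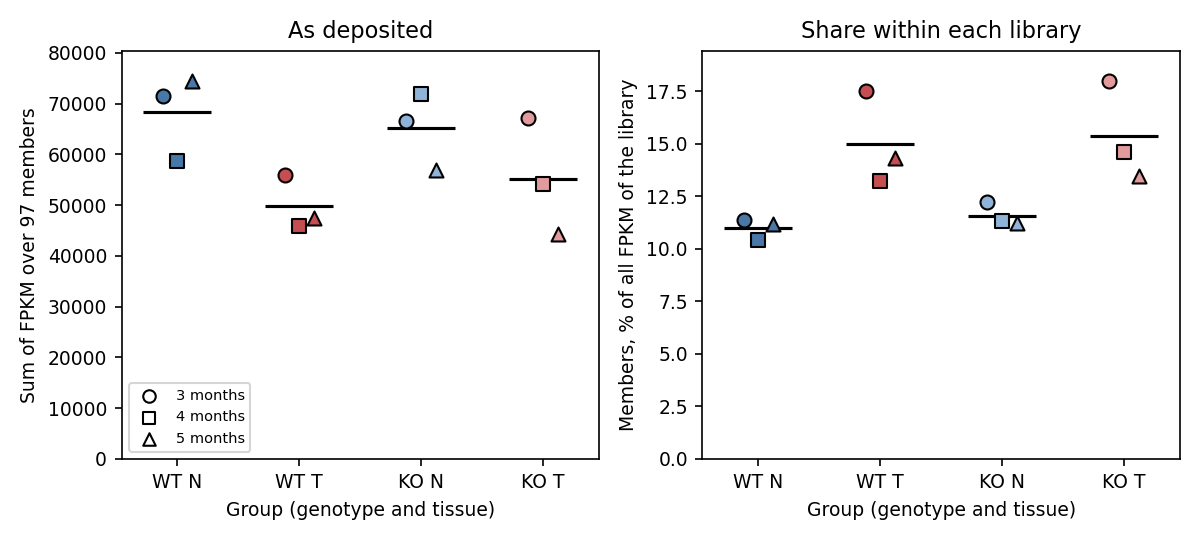
Ribosomal protein genes in each of the 12 libraries, as the sum of FPKM over 97 genes (left) and as the percent of all FPKM of the library (right), by genotype and tissue. Points are libraries, marked by age, and horizontal lines are group means of 3 libraries; the T libraries lie lower on the left in 5 of 6 matched pairs and above all N libraries (13.2% or more against 12.2% or less) on the right.

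The deposited libraries had unequal FPKM sums. The library total implied by the FPKM step of 1 read was 0.720 to 0.915 times the reads in genes in N and 1.13 to 1.30 times in T. Size factors are the median over genes of a library's reads relative to the geometric mean of the libraries in its table. They were 0.719 to 0.913 in N and 1.03 to 1.35 in T. Within each table the implied total was the same multiple of this factor in every library. The deposited FPKM were thus already scaled by such factors. Rescaling to equal sums, used below, replaces that scaling. Genes encoded by mitochondrial DNA took 12.9 to 21.3% of FPKM in N and 4.78 to 11.1% in T. Without mitochondrial and immunoglobulin genes in the denominator, the share of ribosomal protein genes was 12.6 to 14.5% in N and 14.5 to 20.7% in T. The lowest T library then lay just below the highest N library.

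On the deposited scale, 24 of the 91 tested genes were lower in adenoma than in normal colon of WT mice and 1 was higher. These calls are from limma on log2(FPKM + 1) with Benjamini-Hochberg adjustment over 15526 genes and an adjusted p under 0.05. Of all genes tested, 19.9% were called lower and 16.3% higher. The median difference was -0.21 over the members and 0.01 over all genes. The 24 comprised 13 large-subunit and 8 small-subunit genes and the paralogs Rpl22l1, Rps27rt and Rps27l. Each lay below 0 at all 3 ages, in the same libraries from which the calls were made, so this adds no separate support. After rescaling each library to the same FPKM sum (TPM), none was lower and 48 were higher in WT T, when 7.4% and 51.9% of all genes were so called. The members' median was then 0.59 against 0.76 for all genes. On both scales the members' median lay below that of all genes, by 0.22 as deposited and by 0.17 after rescaling. Rescaling moves all genes of a library by nearly the same factor, so the second gap is not separate support for the first. Of the 24 genes lower as deposited, 11 had a positive difference after rescaling. The model held age as a term, which is also the replicate number, and without it 2 genes were called lower. The share of all genes called without that term is not given here.

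In KO, 2 genes were lower in adenoma (Rps27rt, Rpl22l1) and 1 was higher (Rpl13a), against 16% and 14% of all genes. The members' median was -0.14, with 0.02 over all genes. After rescaling, none was lower and 40 were higher, against 7.61% and 41.3% of all genes, with medians of 0.50 and 0.57. All 24 genes called lower in WT also had negative differences in KO, and 18 of them did so at all 3 ages. The share of all genes called lower in WT that did so is not given here. The difference between genotypes was tested in the interaction described further on.

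Rpl21 (chr5:146832890-146837032, plus strand, mm10), which encodes a large-subunit protein, had the most negative difference. It measured 238, 199 and 90.7 FPKM in WT N at 3, 4 and 5 months and 89.4, 32.8 and 58.9 in WT T. In KO it measured 262, 193 and 81.3 in N and 116, 49.1 and 89.4 in T. Each WT T library was below the WT N library of its age, and the KO pair of 5 months went the other way. Across ages, 89.4 in WT T at 3 months and 90.7 in WT N at 5 months nearly met. These 2 values stand in tables scaled apart, so their order is uncertain. The WT difference was -1.53 ± 0.41 (SE, n = 3 per group, limma adjusted p = 0.0188, Benjamini-Hochberg), and -0.65 after rescaling (limma adjusted p = 0.215). With 1 library left out at a time the adjusted p reached 0.0834, and the call was lost without WT T or WT N of 3 or 4 months.

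Rps27 (chr3:90212522-90213651, minus strand), which encodes a small-subunit protein with a zinc finger, measured 2341, 2023 and 1944 FPKM in WT N and 1058, 623 and 924 in WT T. In KO it measured 2346, 2190 and 1277 in N and 1752, 809 and 931 in T. All WT T libraries lay below all WT N libraries, while in KO the T library of 3 months lay above the N library of 5 months. The WT difference was -1.30 ± 0.29 (SE, n = 3 per group, limma adjusted p = 0.00713), and that in KO was -0.77 ± 0.29 (SE, limma adjusted p = 0.0717). After rescaling the WT value was -0.41 and did not pass (limma adjusted p = 0.180).

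Other canonical genes called lower in WT were Rpl36a (-1.10), Rpl30 (-1.03), Rps29 (-1.02), Rpl38 (-0.98) and Rpl31 (-0.98), each with an SE of 0.23 to 0.33. Rpl38 is known for its part in the translation of Hox mRNAs. Rpl38 measured 1956, 1465 and 2345 FPKM in WT N and 1017, 686 and 1256 in WT T, without overlap. After rescaling these 5 genes had differences of -0.21 to -0.08, and none passed. Rps29 lost its call without any 1 of the 6 WT libraries (adjusted p up to 0.142), Rpl38 without WT T of 3 or 4 months or WT N of 5 months, and Rpl31 without WT T of 4 months.

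Among the abundant genes, Rps3a1 was also called lower in WT as deposited, at 4164, 3668 and 1810 FPKM in N and 2458, 1469 and 1275 in T. Its difference was -0.86 ± 0.26 (SE, limma adjusted p = 0.0285), but 0.03 after rescaling. Leaving out WT T of 3 or 4 months or any WT N library ended that call (adjusted p up to 0.131), as did leaving out any 1 age (up to 0.173). The stalk genes did not pass as deposited in WT, with Rplp1 at -0.74 (limma adjusted p = 0.0621), Rplp2 at 0.11 and Rplp0 at 0.24. After rescaling Rplp1 was at 0.15 in both genotypes and did not pass. Rplp0, the stalk base, measured 809, 707 and 1621 FPKM in WT N and 1060, 1313 and 1103 in WT T, higher in T at 3 and 4 months and lower at 5.

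Rpl13a (chr7:45125558-45128761, minus strand), which encodes a large-subunit protein, was the member higher in adenoma on both scales and in both genotypes. It measured 14.5, 12.9 and 14.1 FPKM in WT N at 3, 4 and 5 months and 28.6, 33.1 and 24.1 in WT T. In KO it measured 16.4, 15.8 and 12.2 in N and 27.8, 43.1 and 21.1 in T. Every T library lay above every N library. The difference was 0.99 ± 0.20 in WT (SE, limma adjusted p = 0.00527) and 0.96 ± 0.20 in KO (SE, limma adjusted p = 0.00731), and 1.88 and 1.62 after rescaling. With any 1 library left out it passed in both genotypes, with adjusted p up to 0.0239 in WT and 0.0304 in KO. Without all 3-month libraries it did not (limma adjusted p = 0.0552 in WT and 0.0511 in KO). It had 441 to 2603 reads per library, and its level is uncertain for the overlap given above.

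Other genes with positive differences in WT did not pass as deposited: Rpl17 (0.66), Rpl7a (0.66), Rps13 (0.56), Rps2 (0.49), Rpl14 (0.46), Rps19bp1 (0.43), Rps9 (0.42), Rpl7l1 (0.35) and Rpl3 (0.33). After rescaling each of these 9 lay between 1.23 and 1.55. Rpl17 measured 489, 481 and 272 FPKM in WT N and 612, 775 and 533 in WT T, higher in T throughout. In KO it measured 448, 382 and 505 in N and 340, 964 and 282 in T, higher in T only at 4 months. With the reads of its pseudogene rows added, the WT difference of Rpl17 fell from 0.66 to 0.11.

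The differences ran with the length of the coding sequence. A change of scale moves all genes of a library by nearly the same factor, so this order hardly depends on it. In WT, the median T minus N difference was -0.85 in the 9 canonical genes with a coding sequence of up to 300 bases and -0.55 in 27 genes of 300 to 450 bases. It was -0.32 in 19 genes of 450 to 600 bases, -0.01 in 19 of 600 to 900 bases, and 0.24 in the 3 longer ones. In KO the same bins gave -0.50, -0.22, -0.14, 0.11 and 0.16. As means over ages on the deposited scale, all 9 of the shortest genes lay below 0 in both genotypes, and all 3 of the longest above. Single ages differed: in KO at 3 months 4 of the 9 shortest lay above 0, and 2 of the 3 longest lay below 0 in WT at 5 months and in KO at 4 months. After rescaling, 6 of the 9 shortest lay above 0 in WT and 7 in KO. Of the 24 genes called lower in WT, 16 were canonical genes of up to 450 coding bases and 2 had more than 600.

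Spearman's rho between coding length and the difference was 0.52 in WT and 0.58 in KO over the 77 canonical genes, which share the same 12 libraries. At 3, 4 and 5 months it was 0.54, 0.40 and 0.62 in WT and 0.34, 0.41 and 0.63 in KO. The trend was present beyond these genes: in 12565 other protein-coding genes rho was 0.14 in WT and 0.11 in KO, and in 77 mitochondrial ribosomal protein genes 0.33 and 0.36. In the other coding genes the WT medians rose from -0.36 at up to 300 bases to -0.10 at 600 to 900 bases, a smaller span than in the canonical members. GC content had rho of 0.28 and 0.25 over the canonical genes, and of 0.24 and 0.14 in the other coding genes, where it exceeded that of length. In the canonical genes in WT it was 0.18, 0.39 and 0.013 at 3, 4 and 5 months, close to that of length at 4 months. The part of GC content in this order was not tested. Coding length also ran with other differences of the canonical genes. For KO minus WT, as means over ages, rho was -0.55 in T and 0.16 in N. For 4 minus 3 months it was 0.41 in WT N, 0.28 in KO N, 0.28 in WT T and 0.36 in KO T. An order by length was thus not particular to adenoma against normal colon.

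**Figure D2:**
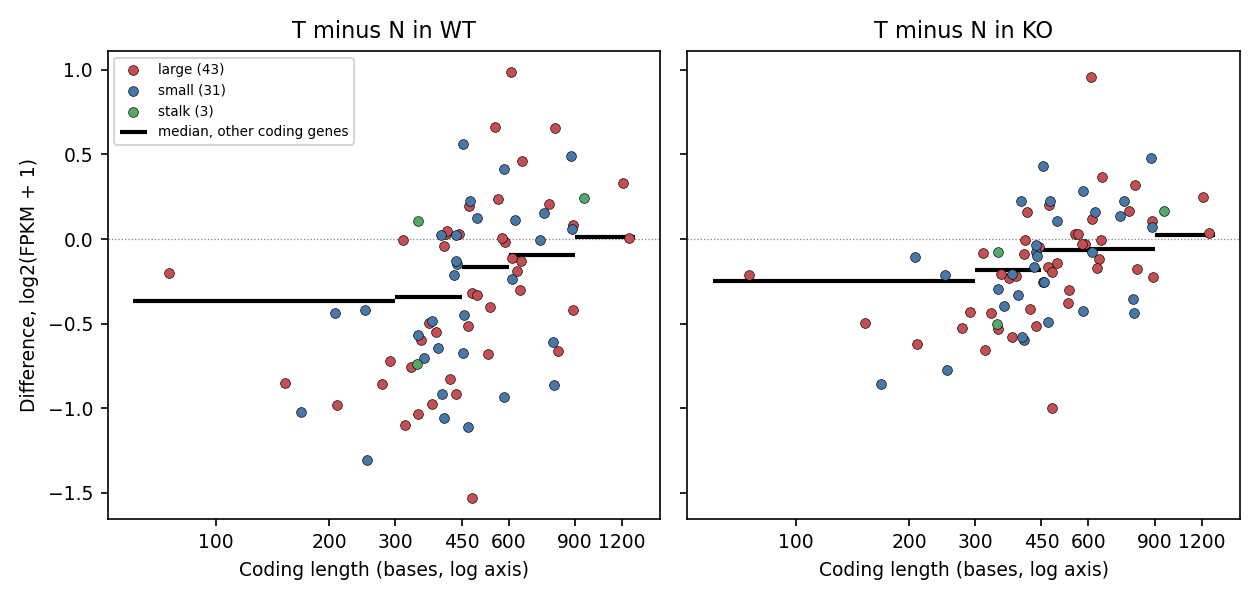
Difference between adenoma and normal colon, in log2(FPKM + 1), of the 77 canonical ribosomal protein genes against coding length in bases (log axis), in WT (left) and KO (right). Points are genes coloured by subunit, and black lines are medians of other protein-coding genes in the same length bins; as means over ages on the deposited scale the 9 shortest genes lie below 0, at medians of -0.85 and -0.50, and the 3 longest above, while 6 and 7 of the 9 shortest lie above 0 after rescaling.

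Paralogs were compared with their canonical partner as a ratio of FPKM within a library, which does not depend on the library scale. Rpl22l1 (chr3:28805436-28807424, plus strand) encodes a close relative of Rpl22 whose expression Rpl22 is known to repress, and Rpl22 is often mutated in tumours with microsatellite instability. Rpl22l1 stood at 81.6, 79.2 and 51.9% of Rpl22 in WT N at 3, 4 and 5 months and at 65.1, 48.5 and 36.8% in WT T. In KO it stood at 80.2, 64.6 and 48.8% in N and 62.7, 50.2 and 42.4% in T. The ratio was lower in T in 6 of 6 matched pairs, while N and T ranges overlapped across ages.

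Rpl22l1 itself measured 280, 225 and 99.3 FPKM in WT N and 143, 92.8 and 52.0 in WT T, and in KO 258, 185 and 72.1 in N and 184, 120 and 51.7 in T. Its difference was -1.05 ± 0.17 in WT (SE, limma adjusted p = 0.00151) and -0.52 ± 0.17 in KO (SE, limma adjusted p = 0.0419). After rescaling it was -0.16 in WT and turned to 0.12 in KO. The KO call was lost when any of 10 of the 12 libraries was left out (adjusted p up to 0.150). Rpl22 was lower in WT T as deposited, with a difference of -0.55 ± 0.18 (SE, limma adjusted p = 0.0421) and of 0.34 after rescaling. That call too was lost in 10 of the 12 fits with 1 library left out (adjusted p up to 0.163) and without any 1 age.

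Rps27l, a target of p53 that can replace Rps27 in the small subunit, stood at 32.1, 27.1 and 16.5% of Rps27 in WT N and at 42.3, 70.7 and 19.3% in WT T. In KO it stood at 29.7, 27.6 and 18.2% in N and 32.3, 64.8 and 21.3% in T. The ratio was higher in T in 6 of 6 pairs, with the widest gaps at 4 months in both genotypes. Rps27l was itself called lower in WT T as deposited (-0.64 ± 0.19, SE, limma adjusted p = 0.0265), and was at 0.26 after rescaling. The call was lost without any WT T library or WT N of 3 or 5 months (adjusted p up to 0.110). It was also lost in 2 of the 3 fits with 1 age left out (limma adjusted p up to 0.244).

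Rpl7l1, which encodes a nucleolar relative of Rpl7 that acts in large-subunit assembly, stood at 2.58, 2.67 and 6.05% of Rpl7 in WT N and 5.16, 9.58 and 7.05% in WT T. In KO it stood at 2.33, 4.35 and 6.44% in N and 3.88, 7.98 and 7.68% in T, again higher in T in 6 of 6 pairs. The retrogene Rps27rt, whose sequence is close to that of Rps27, had ratios of 25.1 to 61.1% in N and 23.0 to 46.8% in T with no common direction. As deposited it was lower in both genotypes (-0.95 ± 0.29 in WT and -1.14 ± 0.29 in KO, SE, limma adjusted p = 0.0296 and 0.0162), and neither passed after rescaling. The WT call was lost without WT T of 3 or 4 months or any WT N library (adjusted p up to 0.131). The KO call was lost in 2 of the 12 fits with 1 library left out (limma adjusted p up to 0.0724). It was also lost without any 1 age (up to 0.113). The reads of Rps27rt and those of Rps27 may not be separable.

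**Figure D3:**
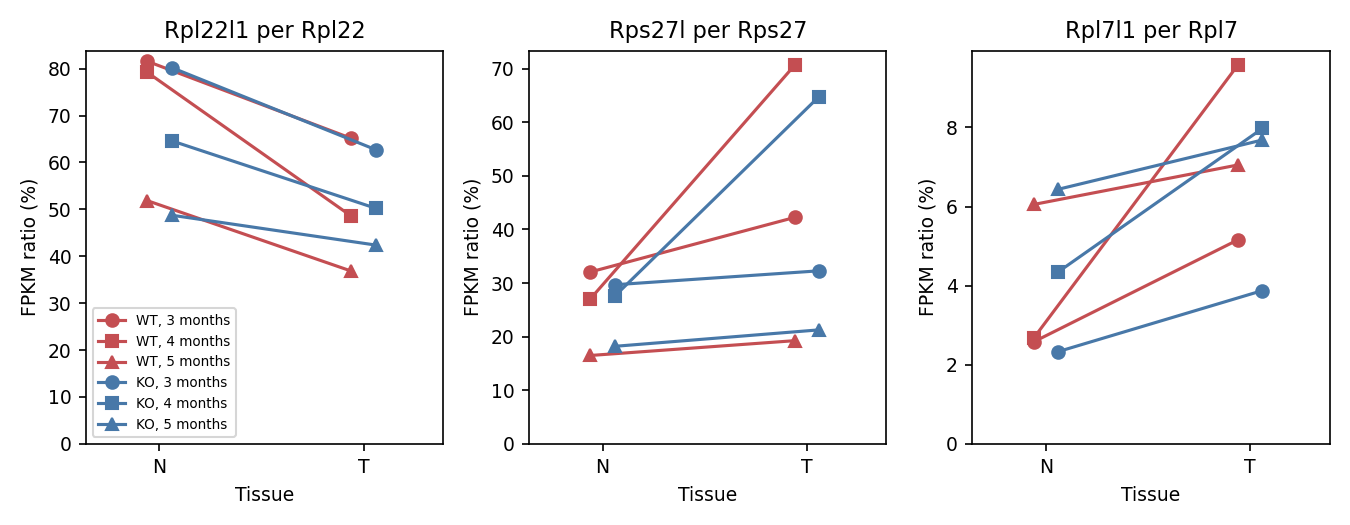
FPKM of 3 paralogs as a percent of the canonical partner in the same library, in normal colon (N) and adenoma (T). Each line joins the libraries of 1 genotype and age; Rpl22l1 is lower in T relative to Rpl22 in 6 of 6 pairs, and Rps27l and Rpl7l1 are higher relative to Rps27 and Rpl7 in 6 of 6 pairs.

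Other genes of ribosome production were counted in the same fits, from lists chosen for their function. Of 41 ribosome assembly factors, 26 were higher in WT adenoma as deposited and 24 in KO, with medians of 0.68 and 0.67, against 16.3% and 14% of all genes. After rescaling 39 and 38 were higher, against 51.9% and 41.3% of all genes. Examples in WT were Rrp9, which binds the U3 snoRNA (1.43 ± 0.17, SE, limma adjusted p = 0.000355), and Nop2, a methyltransferase of ribosomal RNA (1.32 ± 0.17, SE, limma adjusted p = 0.000535). Of 15 genes of RNA polymerase I, which transcribes ribosomal RNA, 6 were higher in each genotype as deposited, against 16.3% and 14% of all genes. Among them were Polr1a (0.79 in WT) and Rrn3 (0.94 in WT). The count of this list after rescaling is not given here. In the Myc network list of 8, 3 were higher and 3 lower in WT, and 4 higher and 1 lower in KO, with medians of 0.12 in each. Of all genes, 16.3% were higher and 19.9% lower in WT, and 14% higher and 16% lower in KO. Myc was higher in both genotypes (1.20 in WT and 1.34 in KO), and Mlx, a partner in the same network, lower (-1.22 and -1.17). The summed FPKM of the 8 was 139 to 225 in N and 87.9 to 169 in T. After rescaling 4 of the 8 were higher in each genotype, near the 51.9% of all genes in WT and 41.3% in KO. None was lower, when 7.4% and 7.61% of all genes were. Rrp9, Nop2, Polr1a, Rrn3 and Myc had larger positive differences in WT after rescaling.

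Of 77 mitochondrial ribosomal protein genes tested, 24 were lower and 1 was higher in WT as deposited, with a median of -0.40, when 19.9% and 16.3% of all genes were lower and higher. In KO 6 were lower and 1 higher, with a median of -0.26, against 16% and 14% of all genes. After rescaling 2 were lower and 36 higher in WT, against 7.4% and 51.9% of all genes. Of 16 other TOP mRNAs, which encode elongation and initiation factors, 2 were lower as deposited in WT (Tpt1 at -0.80, Eif3e at -0.64), while 14 were higher after rescaling, when both of these turned positive. None of 13 genes of initiation and mTORC1 signalling passed as deposited in either genotype, and 11 were higher in WT after rescaling. Those 14 of 16 and 11 of 13 stand beside the same 51.9% of all genes. Fau, a ribosomal protein gene with another kind of name, was at -0.38 in WT and did not pass. Rps27a, whose protein is made as a fusion with ubiquitin, was at -1.11 with an SE of 0.59 and did not pass.

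**Figure D4:**
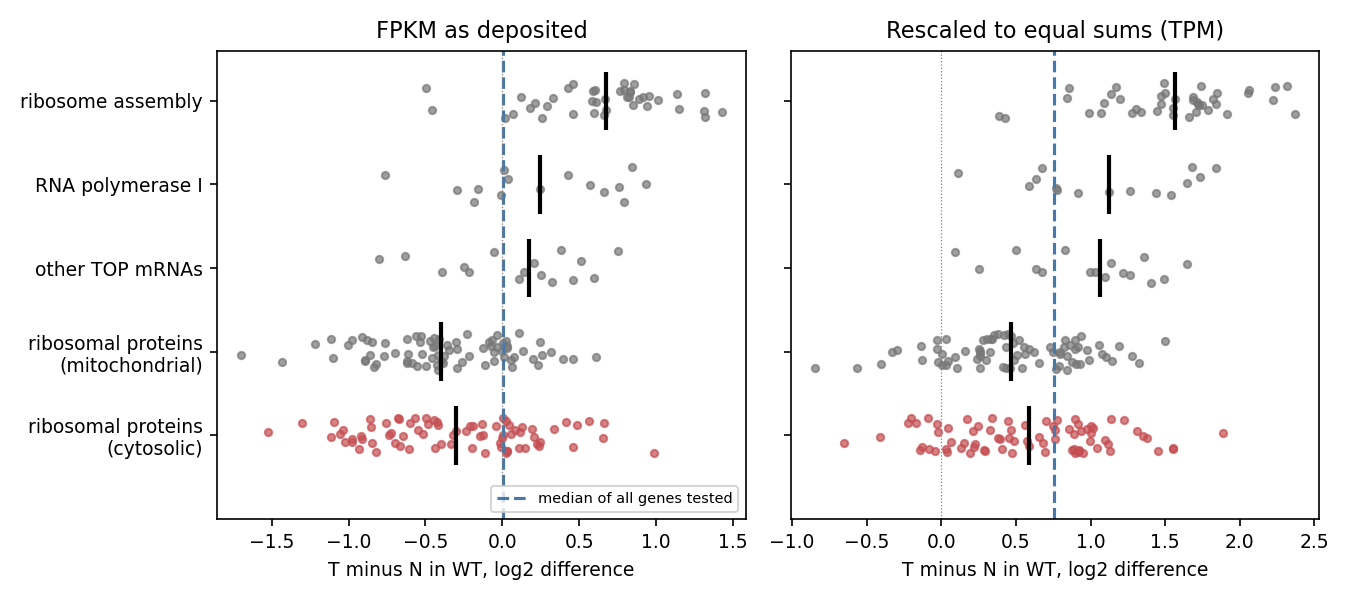
T minus N in WT, as log2 difference, for the 77 canonical cytosolic ribosomal protein genes and for 4 other gene lists, on FPKM as deposited (left) and after rescaling each library to the same sum (right). Points are genes, black bars list medians and the dashed line the median of all genes tested (0.01 and 0.76); assembly factors lie to the right of that line on both scales and ribosomal protein medians to its left.

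The question of the deletion is answered by KO against WT within each tissue. No member passed in adenoma or in normal colon by limma, and none had an unadjusted p under 0.05 in either, with 0.00644% of all genes called lower and 0% higher in each tissue. With voom on recovered reads none passed either. In adenoma, 74 of 91 members lay above 0, with a median of 0.11. After rescaling 48 did, with a median of 0.01 (all genes -0.09). In normal colon, 33 of 91 lay above 0, with a median of -0.04, and 64 after rescaling, with a median of 0.10. The single differences ran from -0.48 to 0.51 in adenoma and from -0.57 to 0.37 in normal colon. Rpl39, with the smallest p in adenoma, was at 0.29 ± 0.20 (SE, limma adjusted p = 1).

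The sign of the shift between genotypes varied with age. In adenoma the members' median KO minus WT difference was 0.19 at 3 months, 0.25 at 4 months and -0.11 at 5 months, and in normal colon -0.11, 0.34 and -0.39. Each of these compares 1 library with 1 library and has no replicate check. The widest single differences were not shared across ages. Rps27a measured 140 FPKM in WT T and 426 in KO T at 4 months, but 370 and 143 at 5 months, and 504 and 174 in N at 5 months. Rpl17 was lower in KO T at 3 and 5 months (340 against 612, and 282 against 533) and higher in KO N at 5 months (505 against 272). Its KO minus WT difference in T was -0.48 over ages, and -0.0055 with the reads of its pseudogene rows added.

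**Figure D5:**
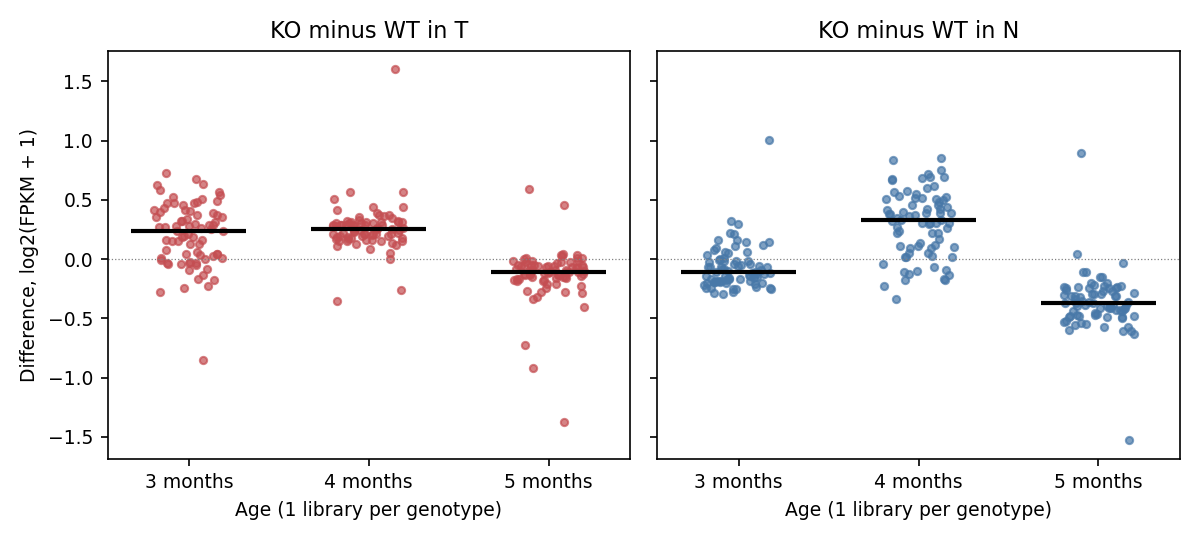
KO minus WT differences, in log2(FPKM + 1), of the 77 canonical genes at each age in adenoma (left) and normal colon (right), with 1 library per genotype at each point in time. Points are genes and bars medians; most genes lie on the same side of 0 within an age, but the side differs between ages.

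The interaction, which tests whether the tissue difference differs between genotypes, passed for no member and for 0% of all genes higher or lower by limma. The members' median was 0.17, since the deposited differences were less negative in KO, and it was -0.07 after rescaling. The smallest unadjusted p was that of Rpl22l1 (0.53 ± 0.24, SE, limma adjusted p = 0.9996), followed by Rps7 (0.51 ± 0.27, SE, limma adjusted p = 0.9996). Thus the 24 genes called lower in WT and 2 in KO were not shown to differ between genotypes.

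Age could be compared between 3 and 4 months, which stand in the same table. No member passed by limma and the median was -0.12, with 0.0129% of all genes called higher and 0.0193% lower. An unadjusted p under 0.05 was found in 17 members, and the share of all genes at that threshold is not given here. Rps2, a small-subunit protein near the mRNA entry site, measured 438 and 388 FPKM in WT T and KO T at 3 months and 1074 and 1161 at 4 months. In N it went from 380 and 376 to 405 and 455. Its difference over all groups was 0.81 ± 0.30 (SE, limma adjusted p = 0.223). At the other end, Rpl22l1 measured less at 4 months in all 4 groups (-0.51 ± 0.14, SE, limma adjusted p = 0.215). With age fitted within each tissue, 5 members were called higher and 9 lower at 4 months, among them Rps2 (limma adjusted p = 0.0175) and Rpl22l1 (limma adjusted p = 0.0323). The share of all genes called in that fit is not given here, so these counts cannot be read as particular to the members.

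The 5-month libraries differed from the others in the balance between members, as within-library ratios show. These pairs were chosen after their values were seen. Rpl28 stood at 16.3 and 20.9% of Rpl30 in WT N at 3 and 4 months and at 332% at 5 months. In KO N the values were 18.6, 22.9 and 329%. In adenoma the ratio was 28.7, 125 and 298% in WT and 22.8, 97 and 268% in KO. The 4-month adenoma libraries thus lay between the younger and the 5-month ones. Rpl14 per Rpl31 gave the same order, at 8.85, 11.4 and 95.1% in WT N and 22.1, 74.3 and 116% in WT T. Large-subunit genes summed to 1.16 to 1.27 times the FPKM of small-subunit genes in the 5-month libraries and 1.03 to 1.15 times in the others. Age, table and any batch that came with the 5-month libraries cannot be told apart.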

How the data were processed

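The authors deposited FPKM per gene and a gene length in bases, per the file headers. The 3- and 4-month libraries (8) share 1 table, and the 5-month ones (4) have their own, scaled apart. Per the submitters' processing notes the tools were StringTie, featureCounts 1.5.0-p3 and DESeq2 on mm10. The aligner is not given in the sources used here, nor is the annotation release. FPKM times length was a whole multiple of 1 step in 100% of values (tolerance 0.01), so reads could be recovered.

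Differences were fitted with limma 3.58.1 in R 4.3.3 (lmFit, eBayes with trend) on log2(FPKM + 1), which understates the change of low genes, with group and age as terms over the 12 libraries. The 15526 genes averaging 0.5 FPKM or more were tested, with Benjamini-Hochberg adjustment over all of them and a threshold of 0.05. The code was tested on simulated data. Age equals the replicate number, and the labels tie it to no shared animal. Alternatives were a pseudocount of 0.1, no filter, a mean of 5 FPKM, rescaling to equal sums (all genes, without mitochondrial and immunoglobulin genes, or without the members), voom on recovered reads, reads of pseudogene rows added, no age term, age within tissue, only the groups compared, and leaving out each library or age.

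Members and lists were chosen with earlier results of these data known. Named genes were those with the 10 largest passing changes in each direction and comparison, or where fewer than 5 passed the 5 of smallest p, the 5 most and 5 least abundant, and the paralogs with their partners; of the other lists, genes of smallest p. Coding length is from GENCODE M21 and promoters from RefSeq. Protein sequences were not used here, and some genes that the rule would name are not reported here. Genes whose pattern was given as ratios at 5 months were picked after seeing the values.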

Additional observations from a re-analysis of the deposited data

Results flagged for a closer look

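Of 6 genes outside the members that are named like ribosomal proteins but annotated as pseudogenes, 5 had reads in every library and Rps12l1 had none in any. The mean over 12 libraries was 120.7 FPKM for Rpl37rt, 89.71 for Rpl6l, 13.11 for Rps3a2, 9.293 for Rps3a3 and 4.478 for Rps4l. Rpl37rt ranged from 107 to 174 FPKM in N and from 70.1 to 159 in T. Rps4l was at 9.03 FPKM in WT T and 0.631 in KO T at 3 months, and at 1.95 and 1.90 at 5 months. Whether these reads come from the parent genes was not tested.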

How the results depend on the processing

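The number of members lower in WT adenoma (24) was 6 without a filter on low values, 11 with only the groups compared, 2 without the replicate block and 0 under the 3 rescalings. Those rescalings (equal sums, without mitochondrial and immunoglobulin genes, without the members) gave 48, 42 and 51 higher, with medians of 0.59, 0.49 and 0.66, and age within tissue gave 2 higher. In KO (2 lower, 1 higher) they gave 0 lower and 40, 29 and 48 higher, with medians of 0.50, 0.45 and 0.57. There the lower count was 0 without a filter, 7 with voom, 1 without the replicate block, 10 with age within tissue and 0 with only the groups compared, when 0 were higher. The interaction median (0.17) was -0.068, -0.014 and -0.073 under the rescalings. Age within tissue gave 5 higher and 9 lower at 4 against 3 months. Shares of all genes called are given only for the main fit and for equal sums. For the other settings, also those with a library or age left out, a change in these counts cannot be told from the same change over all genes. The share of the members was 3.89 percentage points higher in T by FPKM and 1.62 by reads. The cause was not tested.

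Leaving out 1 library gave 8 to 28 lower in WT: 8 without WT T of 3 or of 4 months, 11 without WT N of 3 or of 5 months and 15 without WT N of 4 months. It gave 0 to 3 lower in KO: 0 without KO T of 5 months, and 1 without any WT T library, KO T of 4 months, WT N of 3 months or any KO N library. Leaving out 1 age gave 1 to 9 lower in WT and 0 to 1 in KO. The higher count was 1 to 2 per library and 0 to 1 per age in both genotypes, with 2 without WT N of 5 months and 0 without the 3-month libraries. The interaction median ranged from -0.044 (without WT N of 5 months) to 0.36. No member passed between genotypes or in the interaction under any setting run; only the groups compared was not run for the interaction, nor 3 or 4 months left out for their own comparison.

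Of 61 members with a negative difference in each genotype, 47 in WT and 56 in KO turned positive under equal sums, and none turned the other way. That rescaling moves nearly all differences upward, so a turn the other way was hardly possible. Those named below were picked by the rule for named genes and passed as deposited or after that rescaling. For equal sums in WT, Rpl10-ps3 was at 0.82, Rpl41 at 0.69, Rpl10 at 0.59, Rpl22 at 0.34, Rpl34 at 0.29, Rps27l at 0.26, Rpl7 at 0.23, Rps14 at 0.22, Rps20 at 0.19, Rpl35a at 0.13, Rpl23 at 0.068, Rpl39 at 0.042, Rpl37a at 0.036 and Rps3a1 at 0.031. In KO, Rpl22 was at 0.43, Rps27l at 0.40 and Rpl22l1 at 0.12. Without mitochondrial and immunoglobulin genes in WT, Rpl10-ps3 was at 0.72, Rpl22 at 0.22, Rpl34 at 0.17, Rps27l at 0.13, Rpl7 at 0.11, Rps14 at 0.10, Rps20 at 0.068 and Rpl35a at 0.010, and Rpl22l1 in KO at 0.062. Without the members in WT, Rpl10-ps3 was at 0.89, Rpl41 at 0.76, Rpl10 at 0.66, Rpl22 at 0.41, Rpl34 at 0.36, Rps27l at 0.32, Rpl7 at 0.30, Rps14 at 0.29, Rps20 at 0.26, Rpl35a at 0.20, Rpl23 at 0.13, Rpl39 at 0.11, Rpl37a at 0.10, Rps3a1 at 0.10, Rpl26 at 0.046, Rps24 at 0.040, Rps7 at 0.026 and Rps27rt at 0.0062. In KO without the members, Rpl10 was at 0.60, Rpl22 at 0.49, Rps27l at 0.47, Rps14 at 0.46 and Rpl22l1 at 0.18.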
